A study of Mus musculus with 13 samples.

Results

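Adipocyte genes are 34 genes that fat cells use to take up, make, store and release fat, to signal to other tissues and to take on their identity. They were chosen by a list of gene symbols. They are 34 of the 21100 genes in the expression table, 33 had a value in all 13 tumors, and 25 of the 14390 genes tested were among them. Ucp1, the uncoupling protein of brown fat, had no value in the transplanted tumors.

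RNA sequencing compared 2 mouse models of basal cell carcinoma (BCC), all in female mice. The 9 GEM-BCC tumors lay in the dermis of 7 mice labeled Ptch1+/- K14-CreER2 p53fl/fl, a genotype that the study writes with CreERT2. These tumors had been induced with 3 intraperitoneal injections of 300 µg tamoxifen and a single X-ray dose of 4 Gy. In these mice the keratin 14 promoter drives Cre in basal keratinocytes, so that p53 is lost there after tamoxifen, while 1 copy of Ptch1 is missing in every cell. The 4 Tp-BCC tumors lay under the skin of the right flank of 4 Ptch1+/-p53fl/fl mice, which carry no Cre and had each received 2000000 tumor cells. All Tp-BCC tumors trace back to 1 single GEM-BCC tumor passaged from mouse to mouse, so p-values here measure the spread between tumors and not between origins of the model. A single mouse bore both GEM2 and GEM3, and another bore GEM7 and GEM8. The labels place the GEM-BCC tumors in batch 1 and the Tp-BCC tumors in batch 2, so model, tumor site and batch cannot be told apart. Mouse age was not given in the sources used here. Total expected counts ranged from 28075317 to 32629102 for GEM-BCC and from 15388027 to 17494912 for Tp-BCC.

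White fat cells hold a single large lipid droplet coated with perilipins, fill it with triglyceride when insulin is high, and break it down to fatty acids when catecholamines act on beta-adrenergic receptors. The factors PPARγ and C/EBPα switch on this program during differentiation, and mature fat cells secrete adiponectin, leptin, resistin and adipsin. Mouse skin has a layer of dermal white fat around the hair follicles, and a further fat layer lies beneath it, separated by a thin muscle sheet. Several of these genes are not restricted to fat cells, since sebaceous glands, keratinocytes, endothelium, macrophages and muscle also use some of them.

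Of the 25 adipocyte genes tested, 11 rose in Tp-BCC tumors at an adjusted p under 0.05, against 11.1% of all genes tested (edgeR, Benjamini-Hochberg). None of the 25 fell, against 8.35% of all genes. At an unadjusted p under 0.05 there were 13 higher and 2 lower, the latter being Plin2 and Cebpa, against 18.4% and 16.1% of all genes. DESeq2 found 7 higher and 0 lower, against 13.1% and 12.9% of all genes. It left the adjusted p of Adipoq, Car3, Cidec and Gpd1 undefined, and that of 0.0347% of all genes (5 of 14390). With the study's fold threshold of 2 on the log2 scale added, 8 were higher and 0 lower, against 2.36% and 3.21% of all genes. The 8 rest on edgeR fold changes without shrinkage, whereas the study used DESeq2 with shrunken fold changes, and DESeq2 without shrinkage took 4, the other 4 being those it left undefined. Another reading of the study's low-count filter, described with the processing below, left 21 members to test and called 4. The median log2 fold change was 0.56 over the 25 genes and -0.03 over all genes tested. Cidec, Cfd and Car3 passed the low-count filter only through the Tp-BCC tumors, so these 3 had to differ, and the counts over tested genes describe them without supporting a shift of the set. RNA of whole tumors was measured, and more fat cells in a tumor cannot be told apart from more RNA of these genes per cell.

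Without TP2, 5 of the 25 genes rose and 0 fell, against 6.43% and 4.82% of all genes. The 5 were Cfd, Cidec, Car3, Fabp4 and Cd36. Cfd, Cidec and Car3 among them passed the low-count filter only through the Tp-BCC tumors, so they had to differ here too. Neither this count nor that of genes without overlap, given next, supports a shift of the set. Over the 25 genes the median log2 fold change was then 0.29, against -0.05 over all genes. In 7 genes every Tp-BCC tumor was above every GEM-BCC tumor (Plin4, Cidec, Cfd, Fabp4, Cd36, Gpd1 and Car3), against 5.50% of all genes tested, and in 0 genes was every Tp-BCC tumor below, against 4.45%. The same 7 and 0 genes had this order without TP2, against 6.14% and 5.56% of all genes.

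**Figure D1:**
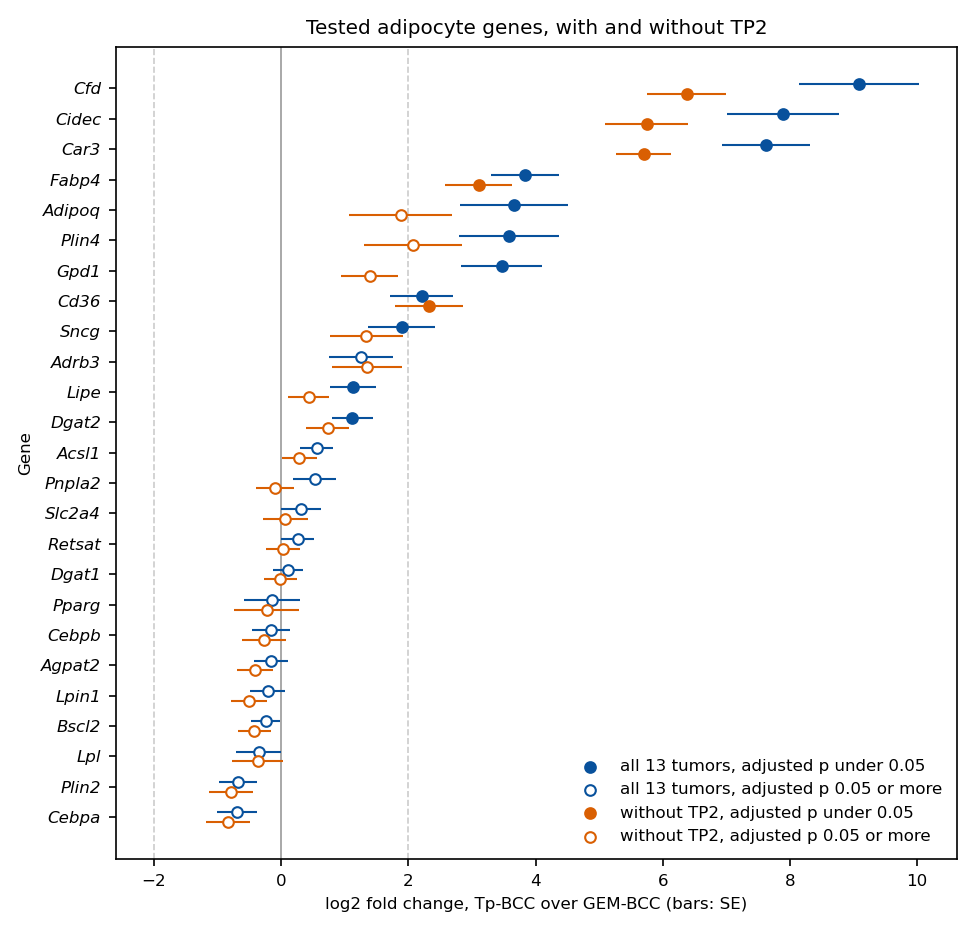
Log2 fold change of Tp-BCC over GEM-BCC for the 25 tested adipocyte genes, with all 13 tumors and without TP2, as edgeR estimates with SEs (filled, adjusted p under 0.05; dashed, the fold threshold of 2). Leaving out TP2 took the estimate from 9.09 to 6.38 for Cfd and from 3.465 to 1.39 for Gpd1, and that of Cd36 from 2.21 to 2.33.

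The Tp-BCC libraries also differed from each other in other ways. CPM below is the count scaled to a common library size by the TMM method. Across genes, log2 CPM minus its mean over the 13 tumors rose with transcript GC content in TP2 (Spearman rho 0.594) and TP4 (0.591), and fell with it in TP1 (-0.389) and TP3 (-0.473). For GEM1 rho was 0.365, and for GEM2 to GEM9 it lay between -0.312 and -0.15. These correlations run across genes, which are not independent replicates. Skeletal muscle genes were high in TP4, where the summed CPM of the 16 genes was 200.5, against 9.95 in TP1, 26.75 in TP2, 10.6 in TP3 and 5.57 to 13.8 in GEM-BCC tumors. The GC trend did not set TP2 apart from TP4, and muscle genes were higher in TP4. Leaving out TP2 was a planned setting and does not rest on these values. Results are given without TP2, and also without TP2 and TP4 where that is of note.

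The promoters of Adipoq, Cidec, Lep and Plin1 are shown because these 4 are among the genes most closely tied to mature fat cells, and all were highest in TP2. Windows of 300 bases around the transcription start were available for 26 of the 34 genes in RefSeq (GRCm38.p6, an older build than the GRCm39 to which the reads were aligned). Capitals mark the letters TTGCNNAA on either strand, a short pattern like that bound by C/EBP factors. The windows lie at chr16:23146286-23146585 on the + strand for Adipoq, chr6:113434715-113435014 on the - strand for Cidec (1 of its 2 windows), chr6:29059971-29060270 on the + strand for Lep and chr7:79732727-79733026 on the - strand for Plin1. They read, 5′ to 3′:
Adipoq: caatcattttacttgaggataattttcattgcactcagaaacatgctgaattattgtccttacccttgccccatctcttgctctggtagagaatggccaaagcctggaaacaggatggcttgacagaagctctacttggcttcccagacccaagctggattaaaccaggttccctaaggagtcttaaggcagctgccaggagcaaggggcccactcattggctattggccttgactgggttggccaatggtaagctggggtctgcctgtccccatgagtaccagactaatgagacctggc
Cidec: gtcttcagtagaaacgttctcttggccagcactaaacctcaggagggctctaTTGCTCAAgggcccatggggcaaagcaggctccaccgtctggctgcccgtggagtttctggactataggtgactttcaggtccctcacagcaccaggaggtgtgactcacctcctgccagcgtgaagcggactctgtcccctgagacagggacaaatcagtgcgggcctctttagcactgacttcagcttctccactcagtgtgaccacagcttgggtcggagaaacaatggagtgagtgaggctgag
Lep: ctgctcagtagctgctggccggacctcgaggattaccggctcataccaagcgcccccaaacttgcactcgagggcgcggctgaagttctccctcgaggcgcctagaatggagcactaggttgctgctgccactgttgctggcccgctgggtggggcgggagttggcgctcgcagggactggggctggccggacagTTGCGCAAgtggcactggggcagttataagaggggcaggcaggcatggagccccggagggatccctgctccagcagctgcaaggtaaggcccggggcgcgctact
Plin1: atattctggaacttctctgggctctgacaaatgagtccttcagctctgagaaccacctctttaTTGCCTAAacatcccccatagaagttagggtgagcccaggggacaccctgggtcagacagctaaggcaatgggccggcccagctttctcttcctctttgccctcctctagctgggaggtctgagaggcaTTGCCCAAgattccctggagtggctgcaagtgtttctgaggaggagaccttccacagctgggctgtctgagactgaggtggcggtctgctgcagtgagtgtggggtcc
The letters were found 2 times in the Plin1 window, starting at -187 from the start site at the first match, and 1 time each in the Cidec window (-198) and the Lep window (-55), and 0 times in that of Adipoq. The match in Lep is the palindrome TTGCGCAA, a special case of the same pattern. TTGCNNAA occurred in 5 of the 35 windows of adipocyte genes (those of Cidec, Lep, Plin1, Pparg and Retsat) and in 10.8% of all 32851 windows, and TTGCGCAA in 1 of 35 and in 0.183%. A match of letters is a description of the sequence, not evidence of binding.

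Secreted proteins of fat cells are given first. Cfd encodes adipsin, the complement factor D that fat cells release. Cfd had a CPM of 2.885 in TP1, 131 in TP2, 4.43 in TP3 and 10.1 in TP4, and of 0 at the lowest, 0.0598 at the median and 0.132 at the highest in GEM-BCC tumors. Every Tp-BCC tumor lay above every GEM-BCC tumor, and no GEM-BCC tumor had more than 4 counts. The log2 fold change was 9.09 (SE 0.94, edgeR adjusted p = 1.26e-05), and without TP2 it was 6.38 (SE 0.62, edgeR adjusted p = 1.78e-05). Over 23 alternatives the edgeR or DESeq2 adjusted p of Cfd was 4.89e-16 to 0.0394.

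Adipoq encodes adiponectin, the hormone made almost solely by fat cells. Adipoq had a CPM of 1.94 in TP1, 19.6 in TP2, 1.32 in TP3 and 2.36 in TP4, against a lowest value of 0.0286, a median of 0.299 and a highest of 1.90 in GEM-BCC tumors. The groups overlapped, since GEM3 (1.90) lay above TP3, and GEM1 (1.12) was the next highest GEM-BCC tumor. By edgeR the log2 fold change was 3.66 (SE 0.85, adjusted p = 0.00817). Without TP2 the change was 1.88 (SE 0.82, edgeR adjusted p = 0.151), and over 22 alternatives the adjusted p was 0.00297 to 0.503. Of the single tumors left out in turn, only TP2 ended the call for Adipoq.

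Lep (leptin, the satiety hormone) and Retn (resistin) had too few counts to be tested. Lep had 5 counts in TP1, 36 in TP2, 5 in TP3 and 4 in TP4, a CPM of 0.294, 2.315, 0.299 and 0.286. In GEM-BCC tumors Lep had 0 counts at the lowest and the median and 3 at the highest, in GEM1. All 4 Tp-BCC tumors lay above all GEM-BCC tumors, although 3 of them rest on 4 or 5 counts. Summed over tumors, the ratio of Tp-BCC to GEM-BCC for Lep was 44.6 (exact 95% interval 17.9 to 143), and without TP2 it was 16.55 (5.63 to 58.7). Such intervals cover counting error only, not the differences between tumors.

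Retn had 64 counts in TP2, 5 in TP4 and 0 in TP1 and TP3, a CPM of 4.115 in TP2 and 0.357 in TP4. All 9 GEM-BCC tumors had 0 counts of Retn. Against a floor of 3 counts over the GEM-BCC group, Retn was at least 102.5-fold higher in Tp-BCC tumors, and at least 9.85-fold higher without TP2. Resistin RNA was therefore detected in 2 tumors of 13, and mostly in TP2.

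Lpl encodes lipoprotein lipase, which frees fatty acids from circulating lipoproteins and is also made by muscle and macrophages. Its CPM was 14.6 ± 5.42 (SD, n = 9) in GEM-BCC and 11.4 ± 4.78 (SD, n = 4) in Tp-BCC tumors, with a log2 fold change of -0.35 (SE 0.35, edgeR adjusted p = 0.5002). TP2 (11.2) was level with TP1 (11.2) in Lpl, unlike in the adipokines.

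**Figure D2:**
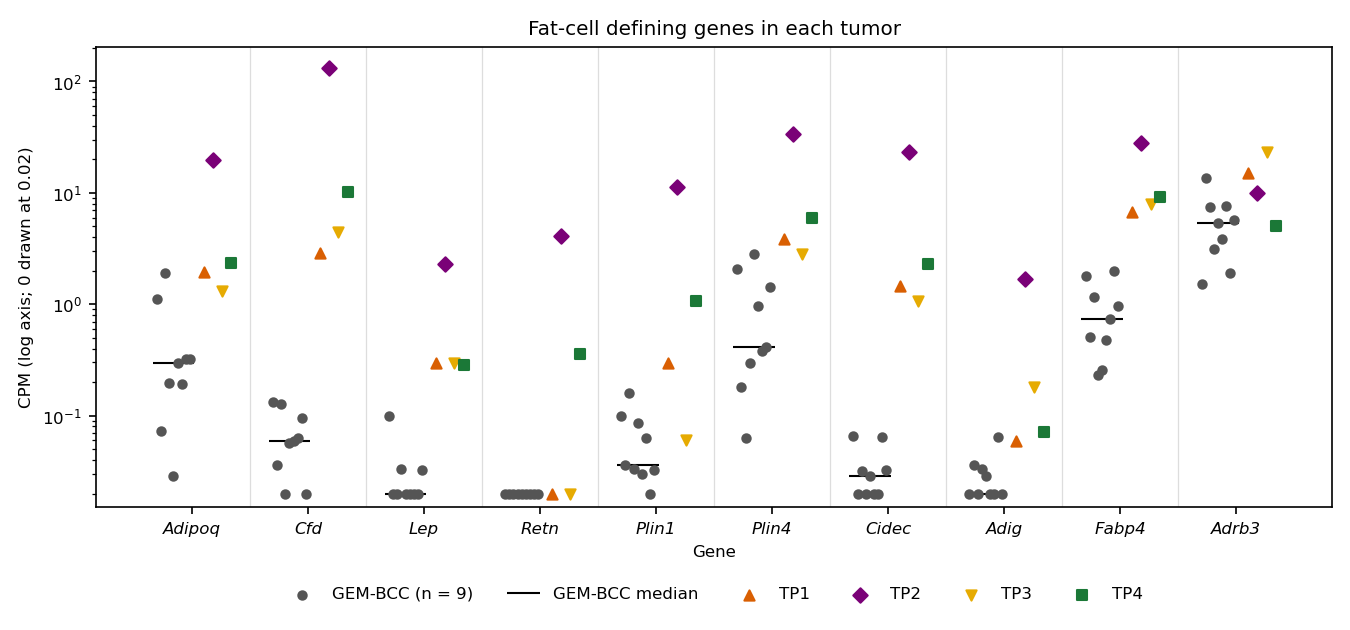
CPM of the 10 fat-cell defining genes in each tumor, on a log axis with 0 drawn at 0.02 (dots, the 9 GEM-BCC tumors; lines, their medians; other symbols, TP1 to TP4). TP2 was the highest tumor for 9 of the 10 genes, at 131 for Cfd and 4.115 for Retn, and Adrb3 alone was highest in TP3 (23.0).

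Proteins of the lipid droplet came next. Plin1 and Plin4 encode perilipins, droplet coats of mature fat cells, and Cidec encodes the protein that fuses droplets into a single large one. Cidec had a CPM of 1.47 in TP1, 23.15 in TP2, 1.08 in TP3 and 2.285 in TP4, against 0 at the lowest, 0.0286 at the median and 0.0658 at the highest in GEM-BCC tumors. Every Tp-BCC tumor lay above every GEM-BCC tumor, in which Cidec had at most 2 counts. On the log2 scale the fold change was 7.89 (SE 0.88, edgeR adjusted p = 2.61e-05), and 5.75 without TP2 (SE 0.65, edgeR adjusted p = 6.80e-05), in a range of 2.02e-05 to 0.0409 over 22 alternatives.

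Plin4 had a CPM of 3.83 in TP1, 33.6 in TP2, 2.81 in TP3 and 5.93 in TP4, against 0.06325 at the lowest, 0.415 at the median and 2.80 at the highest in GEM-BCC tumors. The groups did not overlap, but TP3 was next to GEM5 (2.80), and GEM1 (2.07) and GEM9 (1.42) were also far above the GEM-BCC median. Its log2 fold change was 3.58 (SE 0.79, edgeR adjusted p = 0.00600). Without TP2 it was 2.08 (SE 0.77, edgeR adjusted p = 0.0959), in a range of 0.000114 to 0.222 over 24 alternatives, and no other single tumor ended the call.

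Plin1 was not tested, since only TP2 and TP4 reached 10 counts. Plin1 had 5 counts in TP1, 175 in TP2, 1 in TP3 and 15 in TP4, a CPM of 0.294, 11.25, 0.0599 and 1.07, against 0 at the lowest, 0.0363 at the median and 0.158 at the highest in GEM-BCC tumors. The groups overlapped, with TP3 inside the range of the GEM-BCC tumors. The ratio of summed counts of Plin1 was 51.4 (exact 95% interval 31.3 to 90.04), and 7.30 (3.67 to 14.7) without TP2. TP2 alone held 175 of the 196 counts of Plin1 in Tp-BCC tumors.

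Adig (adipogenin, a small droplet protein) and Aqp7 (the channel through which fat cells release glycerol) were not tested either. Adig had 1 count in TP1, 26 in TP2, 3 in TP3 and 1 in TP4, a CPM of 0.0589, 1.67, 0.180 and 0.0714, and 0 at the lowest and the median and 0.0639 at the highest in GEM-BCC tumors. Apart from TP2, Adig had at most 3 counts in any tumor, and the groups overlapped. Its ratio of summed counts was 27.6 (exact 95% interval 10.7 to 91.1), and 5.91 (1.36 to 25.7) without TP2. Aqp7 had 4, 33, 2 and 8 counts in TP1 to TP4 and at most 2 in a GEM-BCC tumor, with a ratio of 29.9 (exact 95% interval 13.45 to 78.5), or 11.8 (4.47 to 34.6) without TP2.

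The lipases that empty the droplet were present in every tumor. Lipe encodes hormone-sensitive lipase. Lipe had a CPM of 9.30 in TP1, 39.5 in TP2, 7.48 in TP3 and 18.6 in TP4, against 4.14 at the lowest, 8.47 at the median and 10.5 at the highest in GEM-BCC tumors. TP2 and TP4 lay above all GEM-BCC tumors, and TP1 and TP3 within their range. Lipe had an edgeR log2 fold change of 1.135 with an SE of 0.36 and an adjusted p of 0.0400. Of the 11 calls this one held in the fewest alternatives, 11 of 24, with a range of 0.0137 to 0.973. Without TP2 the log2 fold change fell to 0.43 (edgeR adjusted p = 0.417), and without TP2 and TP4 it was -0.02. The call also ended, at a log2 fold change of 0.99 to 1.16, without TP4 (adjusted p = 0.0924), GEM1 (0.0599), GEM3 (0.0568), GEM4 (0.0582), GEM6 (0.0536), GEM7 (0.0626) or GEM9 (0.0639), all by edgeR. Counts summed for each mouse ended it too, at a log2 fold change of 1.135 (edgeR adjusted p = 0.0522).

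Pnpla2, the lipase that takes the first fatty acid off triglyceride, had a CPM of 35.65 ± 8.18 (SD, n = 9) in GEM-BCC and 51.5 ± 37.7 (SD, n = 4) in Tp-BCC tumors. Its log2 fold change was 0.53 (SE 0.34, edgeR adjusted p = 0.277), and it was -0.09 without TP2. Like Lipe, Pnpla2 was above all GEM-BCC tumors in TP2 (103) and TP4 (56.3). TP1 (25.8) lay within the range of the GEM-BCC tumors, and TP3 (20.95) below their lowest (23.99).

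Plin2 encodes the perilipin found in nearly all cells with droplets. Its CPM was 84.4 ± 31.3 (SD, n = 9) in GEM-BCC and 52.7 ± 5.75 (SD, n = 4) in Tp-BCC tumors, a log2 fold change of -0.68 (SE 0.29, edgeR adjusted p = 0.113). Among GEM-BCC tumors Plin2 was highest in GEM4 (137) and GEM5 (118) and lowest in GEM8 (35.1). Without GEM8 the edgeR adjusted p of Plin2 was 0.0397, the lowest of 24 alternatives, which reached 0.503. Bscl2 (seipin, needed for droplet formation) and Lpin1 (lipin 1, the phosphatase that makes diacylglycerol) had log2 fold changes of -0.24 (SE 0.23, edgeR adjusted p = 0.479) and -0.21 (SE 0.27, edgeR adjusted p = 0.611). Bscl2 had a mean CPM of 51.8 for GEM-BCC and 43.8 for Tp-BCC, and Lpin1 of 19.98 and 17.3.

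Genes of uptake and triglyceride synthesis were mixed. Fabp4 encodes the fatty acid carrier of fat cells, which endothelium and macrophages also make. Fabp4 had a CPM of 6.77 in TP1, 28.0 in TP2, 7.90 in TP3 and 9.14 in TP4, against 0.231 at the lowest, 0.732 at the median and 1.98 at the highest in GEM-BCC tumors. Every Tp-BCC tumor was over 3 times the highest GEM-BCC tumor. The change on the log2 scale was 3.83 (SE 0.54, edgeR adjusted p = 0.000240), and 3.11 without TP2 (SE 0.53, edgeR adjusted p = 0.00204), in a range of 3.49e-10 to 0.0800 over 24 alternatives.

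Cd36, the fatty acid translocase of fat cells, endothelium, muscle and macrophages, was not highest in TP2. Cd36 had a CPM of 7.36 in TP1, 4.05 in TP2, 9.04 in TP3 and 3.43 in TP4, against 0.297 at the lowest, 1.02 at the median and 2.97 at the highest in GEM-BCC tumors. All Tp-BCC tumors lay above all GEM-BCC tumors, yet TP2 was lower than TP1 and TP3. Its log2 fold change was 2.21 (SE 0.49, edgeR adjusted p = 0.006285), and 2.33 without TP2 (SE 0.54, edgeR adjusted p = 0.0138), in a range of 0.000313 to 0.0668 over 24 alternatives.

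Gpd1 and Pck1 supply the glycerol backbone of triglyceride. Gpd1, glycerol-3-phosphate dehydrogenase, had a CPM of 1.18 in TP1, 18.8 in TP2, 1.02 in TP3 and 2.00 in TP4, against 0.291 at the lowest, 0.447 at the median and 0.7715 at the highest in GEM-BCC tumors. The groups did not overlap, and TP2 stood far apart. The log2 fold change of Gpd1 was 3.465 (SE 0.63, edgeR adjusted p = 0.00174). Without TP2 it was 1.39 (SE 0.45, edgeR adjusted p = 0.0570), in a range of 0.000910 to 0.321 over 23 alternatives.

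Pck1, the cytosolic phosphoenolpyruvate carboxykinase, was not tested. It had 8 counts in TP1, 196 in TP2, 6 in TP3 and 11 in TP4, and a single count over the 9 GEM-BCC tumors, in GEM1. All Tp-BCC tumors were therefore above all GEM-BCC tumors. Its ratio of summed counts was 985 (exact 95% interval 175 to 39090), and 148 (24.2 to 6069) without TP2. Thrsp (Spot 14, an inducer of lipid synthesis) was also under the filter, with 5, 120, 4 and 6 counts in TP1 to TP4 and 1 to 19 in GEM-BCC tumors. Its ratio was 9.55 (exact 95% interval 7.03 to 13.1), but 1.41 (0.744 to 2.50) without TP2, so that no difference was detectable at this depth in the other Tp-BCC tumors.

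Dgat1 and Dgat2 encode the enzymes that add the last fatty acid to triglyceride. Dgat2 had a CPM of 12.7 in TP1, 37.4 in TP2, 11.2 in TP3 and 30.2 in TP4, against 5.59 at the lowest, 10.7 at the median and 14.8 at the highest in GEM-BCC tumors. TP2 and TP4 lay above all GEM-BCC tumors, and TP1 and TP3 within their range, as in Lipe. For Dgat2 the log2 fold change was 1.12 (SE 0.32, edgeR adjusted p = 0.0252). The call ended without TP2 (log2 fold change 0.73, edgeR adjusted p = 0.176) or without TP4 (0.88, edgeR adjusted p = 0.110), in a range of 0.00955 to 0.770 over 24 alternatives. Dgat1 had a log2 fold change of 0.11 (SE 0.23, edgeR adjusted p = 0.769), with a mean CPM of 26.9 in GEM-BCC and 29.0 in Tp-BCC tumors.

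Other genes of this group did not pass the test. Slc2a4 encodes the insulin-responsive glucose transporter GLUT4, shared with muscle, and had a mean CPM of 24.8 in GEM-BCC and 30.8 in Tp-BCC tumors (log2 fold change 0.31, SE 0.32, edgeR adjusted p = 0.515). Acsl1, which activates fatty acids, had 17.75 and 26.1 (0.56, SE 0.26, edgeR adjusted p = 0.137). Agpat2, which makes phosphatidic acid, had 34.4 and 30.65 (-0.17, SE 0.27, edgeR adjusted p = 0.689). Retsat (retinol saturase) had 23.7 and 28.35 (0.26, SE 0.25, edgeR adjusted p = 0.495). The highest value of Slc2a4 was in a GEM-BCC tumor, GEM3 (54.3).

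None of the 3 transcription factors of fat-cell differentiation passed the adjusted threshold, against 11.1% of all genes higher and 8.35% lower. Pparg, the master regulator, had a CPM of 1.45 ± 0.592 (SD, n = 9) in GEM-BCC and 1.31 ± 0.552 (SD, n = 4) in Tp-BCC tumors, a log2 fold change of -0.14 (SE 0.44, edgeR adjusted p = 0.851). TP2 (1.48) lay between the other Tp-BCC tumors in Pparg. Cebpb, which acts early in differentiation and in many epithelia, had 116 ± 28.05 (SD, n = 9) and 104 ± 59.0 (SD, n = 4), a log2 fold change of -0.16 (SE 0.30, edgeR adjusted p = 0.743). At an unadjusted p under 0.05 Cebpa alone was lower and 0 were higher, against 16.1% and 18.4% of all genes. DESeq2 found 0 in either direction, against 13.1% of all genes higher and 12.9% lower.

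Cebpa, also a factor of keratinocytes, had a CPM of 219 ± 50.1 (SD, n = 9) in GEM-BCC and 135 ± 77.1 (SD, n = 4) in Tp-BCC tumors. TP1 (74.9) and TP3 (70.15) lay below all GEM-BCC tumors, whose lowest was 143, while TP2 (165) and TP4 (230.5) lay within their range. Its log2 fold change was -0.70 (SE 0.31, edgeR adjusted p = 0.1265). It passed the threshold without TP4 (-1.145, edgeR adjusted p = 0.0180), with library size alone (-0.84, edgeR adjusted p = 0.0444) and with the GC trend removed (-1.135, edgeR adjusted p = 0.00175), in a range of 0.00175 to 0.458 over 24 alternatives. Without TP2 and TP4, a choice made after the data were seen, Cebpa (-1.59, edgeR adjusted p = 0.00376) and Cebpb (-1.004, edgeR adjusted p = 0.0433) both passed it.

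In 18 of the 25 tested adipocyte genes TP2 and TP4 both lay above TP1 and TP3, against 43.6% of all genes tested, the same split as in the GC trend. The 18 were 9 of the 11 genes that rose, all but Cd36 and Car3, and Plin2, Pnpla2, Bscl2, Cebpa, Cebpb, Slc2a4, Dgat1, Agpat2 and Retsat. With that trend removed, 11 rose and 3 fell, but more of all genes also passed, with 15.1% higher and 13.3% lower. The 11 were 10 of the genes that rose before and Acsl1 (edgeR adjusted p = 0.0358). The 3 that fell were Cebpa, Agpat2 (edgeR adjusted p = 0.0353) and Bscl2 (edgeR adjusted p = 0.0320). Over 24 alternatives each, the adjusted p reached 0.977 for Agpat2, 0.808 for Bscl2 and 0.569 for Acsl1. Lipe (edgeR adjusted p = 0.0780) was the one that no longer passed.

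**Figure D3:**
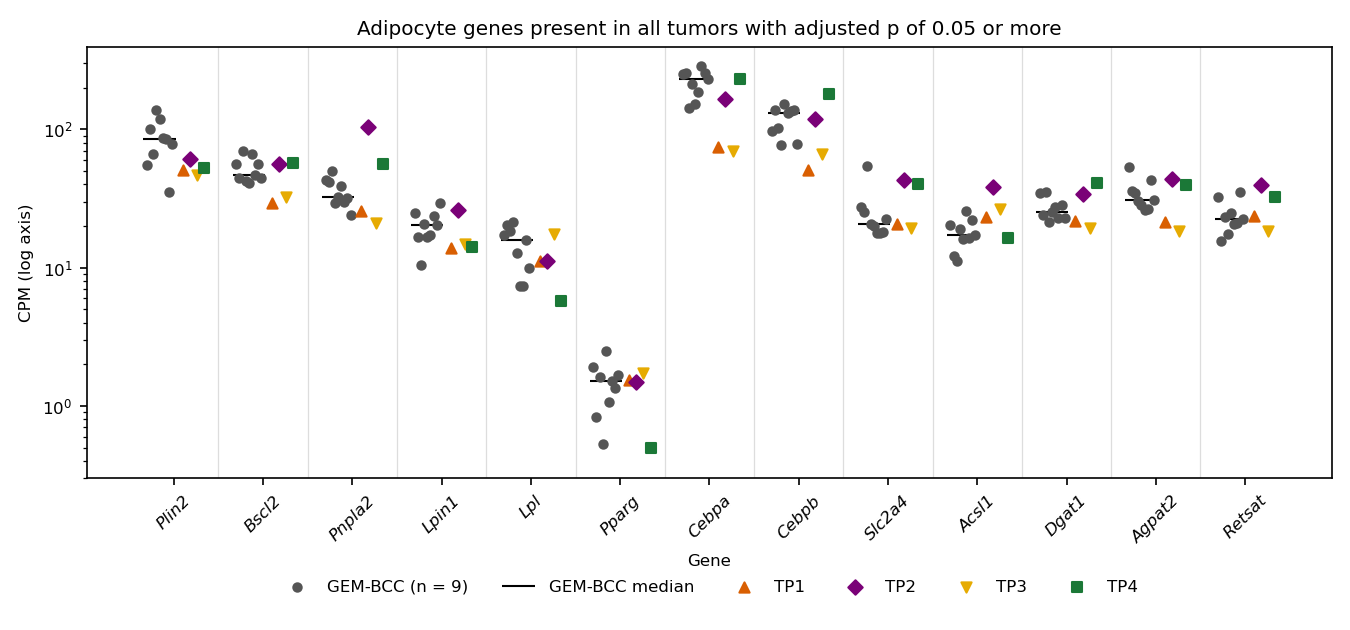
CPM of 13 adipocyte genes with an adjusted p of 0.05 or more, on a log axis (dots, the 9 GEM-BCC tumors; lines, their medians; other symbols, TP1 to TP4). The groups overlap in every gene shown, as in Pparg at 0.527 to 2.51 for GEM-BCC and 0.4998 to 1.74 for Tp-BCC, and TP2 and TP4 lie above TP1 and TP3 in genes such as Cebpa.

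Receptors and other genes of fat cells came last. Adrb3 encodes the beta-3 adrenergic receptor that starts lipolysis in mouse fat. Adrb3 had a CPM of 15.1 in TP1, 9.90 in TP2, 23.0 in TP3 and 5.00 in TP4, against 1.51 at the lowest, 5.34 at the median and 13.55 at the highest in GEM-BCC tumors. The groups overlapped, all GEM-BCC tumors had at least 46 counts, and TP4 lay below the GEM-BCC median. By edgeR its log2 fold change was 1.255 (SE 0.50, adjusted p = 0.0865). It passed the threshold without GEM2 (1.54, edgeR adjusted p = 0.0328) and with counts summed per mouse (1.44, edgeR adjusted p = 0.0450), in a range of 0.0328 to 0.493 over 24 alternatives.

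Car3, carbonic anhydrase 3, is abundant in fat cells and slow muscle. Car3 had a CPM of 9.42 in TP1, 86.5 in TP2, 5.93 in TP3 and 6.35 in TP4, against 0.05715 at the lowest, 0.120 at the median and 0.254 at the highest in GEM-BCC tumors. Every Tp-BCC tumor was far above every GEM-BCC tumor, in which Car3 had 2 to 7 counts. As log2, the fold change was 7.62 (SE 0.69, edgeR adjusted p = 3.67e-06), and 5.70 without TP2 (SE 0.43, edgeR adjusted p = 1.75e-06), in a range of 1.75e-06 to 0.00848 over 22 alternatives.

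Sncg, γ-synuclein, is found in white fat cells and in peripheral neurons. Sncg had a CPM of 3.77 in TP1, 12.7 in TP2, 3.47 in TP3 and 6.85 in TP4, against 0.639 at the lowest, 1.38 at the median and 5.79 at the highest in GEM-BCC tumors. The groups overlapped through GEM3 (5.79), and the next highest GEM-BCC tumor was GEM2 (2.36), from the same mouse. For Sncg the log2 fold change was 1.90 (SE 0.53, edgeR adjusted p = 0.0216). The call ended without TP2 (1.34, edgeR adjusted p = 0.147) or without TP4 (1.80, edgeR adjusted p = 0.0585), in a range of 0.00215 to 0.382 over 24 alternatives.

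Acvr1c, the ALK7 receptor of fat cells, had 2 counts in TP1 and 0 in the other Tp-BCC tumors, and 0 to 3 counts in GEM-BCC tumors, with a ratio of summed counts of 0.811 (exact 95% interval 0.0873 to 3.71), so no difference was detectable at this depth. Ucp1 had a single count over all GEM-BCC tumors. It had no value in any Tp-BCC tumor, so it could not be compared.

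TP2 was compared with the other Tp-BCC tumors in each gene. In 10 of the 25 tested adipocyte genes TP2 was at least 3 times the median of TP1, TP3 and TP4, against 1.02% of all genes tested (147 of 14390). The 10 were Adipoq, Car3, Cfd, Cidec, Fabp4, Gpd1, Lipe, Plin4, Pnpla2 and Sncg. The same measure took 0 adipocyte genes in TP1, against 10.5% of all genes tested, 0 in TP3, against 12.9%, and 1 in TP4 (Cebpa), against 1.51%. The ratio was 38.2 in Plin1, 29.65 in Cfd, 26.8 in Pck1, 26.2 in Thrsp and 23.4 in Adig, and it was 0.995 in Lpl, 0.966 in Pparg, 0.654 in Adrb3 and 0.550 in Cd36. TP2 is a single tumor, and the measure carries no test.

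**Figure D4:**
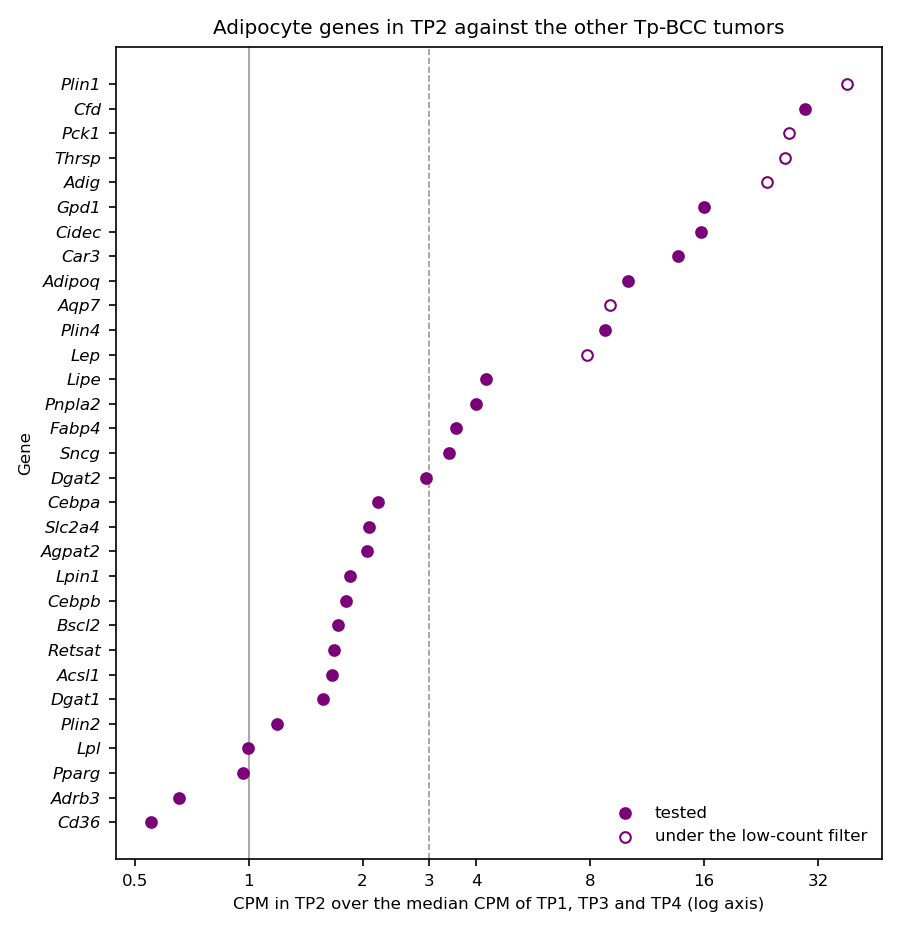
CPM in TP2 over the median CPM of TP1, TP3 and TP4 for each adipocyte gene with a median above 0, on a log axis (dashed, a ratio of 3; filled, tested genes; open, genes under the low-count filter). Ratios ran from 0.550 in Cd36 to 38.2 in Plin1.

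The 10 fat-cell defining genes, summed, gave a CPM of 3.99 to 14.4 in GEM-BCC tumors (median 8.47), 32.7 in TP1, 264.9 in TP2, 41.1 in TP3 and 36.6 in TP4. Of the 6 tested, 5 rose and 0 fell, against 11.1% and 8.35% of all genes, and without TP2 3 rose (Cidec, Cfd and Fabp4), against 6.43%. Cidec and Cfd among them passed the filter only through the Tp-BCC tumors. At an unadjusted p under 0.05 there were 6 higher and 0 lower, against 18.4% and 16.1% of all genes. In DESeq2 there were 3 and 0, against 13.1% and 12.9%, with 2 of the 6 (Adipoq and Cidec) left undefined. Without Adrb3, a choice made after its values were seen, the sum was 0.824 to 5.39 in GEM-BCC tumors (median 2.81), 17.5 in TP1, 255 in TP2, 18.1 in TP3 and 31.6 in TP4. By mean CPM the most abundant of the 10 was Adrb3 in GEM-BCC tumors (5.56) and Cfd in Tp-BCC tumors (37.2). Cfd led through TP2 and TP4, while Adrb3 was the highest in TP1 and TP3. No defining gene was at 0 in all tumors, though Retn was at 0 in all GEM-BCC tumors.

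Further genes of the fat-cell program were counted in lists. Over the 13 tumors left out in turn, 6.43% to 12.1% of all genes rose and 4.82% to 9.76% fell. The shares given above for an unadjusted p, for DESeq2 and for the GC trend removed apply to the list counts below. Of the 20 other genes enriched in fat cells, 16 were tested, 5 rose and 2 fell, against 11.1% and 8.35% of all genes, with a median log2 fold change of 0.57. Without TP2 the counts were 3 and 2, against 6.43% and 4.82%, and without GEM3 4 fell and without TP4 1. Hp (haptoglobin) had a log2 fold change of 4.45 (SE 0.63, edgeR adjusted p = 0.000247), from a GEM-BCC median CPM of 0.419 to 3.83 in TP1, 23.7 in TP2, 0.958 in TP3 and 5.35 in TP4. Without TP2 it was 3.10 (SE 0.55, edgeR adjusted p = 0.00264). Aoc3 (an amine oxidase of fat and smooth muscle) had 2.135 (SE 0.40, edgeR adjusted p = 0.00206), and Trarg1 (a partner of GLUT4 traffic) 1.75 (SE 0.47, edgeR adjusted p = 0.0181). Hp, Aoc3 (36.0) and Trarg1 were highest in TP2, and without TP2 the call for Trarg1 ended (1.23, edgeR adjusted p = 0.130, in a range of 0.00410 to 0.230 over 24 alternatives).

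Mest, an imprinted gene of fat-cell growth that many embryonic and tumor cells use, rose by 2.22 on the log2 scale (SE 0.35, edgeR adjusted p = 0.000535) and was not highest in TP2 (82.55, against 111 in TP1). Sfrp5, an inhibitor of Wnt signals, had -2.89 (SE 0.68, edgeR adjusted p = 0.00926). Over 24 alternatives each, the adjusted p was 5.04e-10 to 0.175 for Hp, 1.31e-05 to 0.147 for Aoc3, 2.65e-07 to 0.0407 for Mest and 1.37e-05 to 0.0927 for Sfrp5. Cyp2e1, under the filter and chosen after its values were seen, had a CPM of 6.69 in TP2 and at most 0.214 in any other tumor.

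Of the 12 genes of brown and beige fat, 7 were tested, 1 rose and 3 fell, against 11.1% and 8.35% of all genes. Without TP2 the counts were 0 and 2, against 6.43% and 4.82%. Dio2, the deiodinase that activates thyroid hormone, had a log2 fold change of -4.26 (SE 0.66, edgeR adjusted p = 0.000497). Its CPM ran from 16.2 to 67.5 for GEM-BCC and from 0.357 to 3.59 for Tp-BCC. Ppargc1a, a coactivator of mitochondrial genes, had -3.72 (SE 0.97, edgeR adjusted p = 0.01515), but passed the filter only through GEM-BCC tumors, with 1 or 2 counts in each Tp-BCC tumor, so it had to differ. Its count among the 3 is no support for a shift of the list. Another that fell was Cidea, also a sebaceous gland gene, at -3.50 (SE 1.14, edgeR adjusted p = 0.0426). Cidea had 18 counts in TP2, a CPM of 1.16, and 0 counts in TP1, TP3 and TP4, against a CPM of 0.727 to 7.86 in GEM-BCC tumors. Without TP2 it was therefore at least 53.56-fold lower, against a floor of 3 counts over the group (edgeR adjusted p = 0.00463). In that setting Cidea was tested through GEM-BCC tumors alone, so it had to differ. The same holds where Cidea is counted without TP2 in the lists below. Ebf2, a factor of brown fat precursors, had 2.27 (SE 0.69, edgeR adjusted p = 0.0314).

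Dio2 kept its call when any single tumor was left out, and over 24 alternatives its adjusted p was 4.81e-14 to 0.0573. Ppargc1a lost its call without TP2 (log2 fold change -3.63, edgeR adjusted p = 0.0516, in a range of 0.000720 to 0.160). Ebf2 lost it without GEM6 (0.0520), GEM9 (0.0525), TP1 (0.0765), TP2 (0.0530) or TP3 (0.0708), in a range of 0.00634 to 0.0765 by edgeR and DESeq2. Without these tumors in turn, the log2 fold change of Ebf2 was 2.02 to 2.40. Cidea lost its call without GEM4 (0.0634), GEM5 (0.0642), GEM6 (0.0543), GEM7 (0.0626), TP1 (0.0868), TP3 (0.0755) or TP4 (0.0963), in a range of 0.00160 to 0.246. Without these tumors in turn, its log2 fold change was -3.54 to -3.08.

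Genes of adipocyte progenitors numbered 12, all tested, of which 6 rose and 1 fell, against 11.1% and 8.35% of all genes, with a median log2 fold change of 0.87. Without TP2 the counts were also 6 and 1, against 6.43% and 4.82%, and without TP2 and TP4 they were 3 and 0, against 6.27% and 4.59%. Without GEM1 2 fell. With all tumors the gene that fell was F3 (log2 fold change -1.15, SE 0.29, edgeR adjusted p = 0.01315). At an unadjusted p under 0.05 there were 6 higher and 2 lower, the latter being F3 and Dpp4. Dpp4 had a log2 fold change of -2.22 (SE 0.87, edgeR adjusted p = 0.0846). Pdgfra, which marks progenitors and most fibroblasts, had a log2 fold change of 2.14 (SE 0.35, edgeR adjusted p = 0.000746). Its CPM was 1562 in TP1, 750.0 in TP2, 1552 in TP3 and 245 in TP4, against 181 to 399.5 in GEM-BCC tumors. It was therefore higher in TP1 and TP3 than in TP2, and TP4 lay within the range of GEM-BCC tumors.

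Dlk1, an inhibitor of fat-cell differentiation, had a log2 fold change of 5.18 (SE 0.73, edgeR adjusted p = 0.000234), with a CPM of 4.06 to 12.6 in Tp-BCC and 0 to 0.7025 in GEM-BCC tumors. Without GEM8, the highest of the latter, it was 5.77 (SE 0.68, edgeR adjusted p = 6.93e-05). Zfp423, a factor of fat-cell commitment, had 1.75 (SE 0.31, edgeR adjusted p = 0.00154). Pdgfrb, of pericytes and progenitors, had 1.25 (SE 0.25, edgeR adjusted p = 0.00306), and Pi16, of early progenitors, 2.05 (SE 0.46, edgeR adjusted p = 0.00643). Over the alternatives the adjusted p reached 0.0603 for Dlk1, 0.156 for Pdgfra, 0.176 for Zfp423, 0.267 for Pdgfrb and 0.143 for Pi16, and no single tumor left out ended any of these 5 calls. The summed CPM of the list was 494 to 894 in GEM-BCC tumors, 2155 in TP1, 1526 in TP2, 2113 in TP3 and 1044 in TP4. Its most abundant gene by mean was Pdgfra in both models. Pdgfra alone held 1562 of the sum in TP1, 750.0 in TP2, 1552 in TP3 and 245 in TP4. In TP1 and TP3 the sum is thus mostly this gene, and the list was not summed without it.

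Of 16 further adipogenic transcription factors, all tested, 2 rose and 1 fell, against 11.1% and 8.35% of all genes, and the median log2 fold change was 0.02. Without TP2 the counts were again 2 and 1, against 6.43% and 4.82%. Klf4, which acts early in fat-cell differentiation and in keratinocytes, had a log2 fold change of 1.57 (SE 0.19, edgeR adjusted p = 5.72e-05), and Ebf1 had 1.19 (SE 0.29, edgeR adjusted p = 0.0104). Gata3, which restrains fat-cell differentiation and is a factor of skin epithelium, had -1.51 (SE 0.32, edgeR adjusted p = 0.00444). Over the alternatives the adjusted p reached 0.119 for Klf4, 0.458 for Ebf1 and 0.240 for Gata3. The CPM of Klf4 ran from 42.6 to 79.95 for GEM-BCC and from 156 to 247 for Tp-BCC, so the groups did not overlap.

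Genes that make fatty acids did not pass the test, with 0 of 13 past the adjusted threshold in edgeR, against 11.1% of all genes higher and 8.35% lower. There was 1 lower without TP2 or without GEM3, and 1 higher without TP2 and TP4 or with the GC trend removed. At an unadjusted p under 0.05 there were 0 higher and 1 lower (Acaca), and DESeq2 found 0 higher and 1 lower. The 2 with the highest levels were Scd2, at a mean CPM of 1005 in GEM-BCC and 728 in Tp-BCC tumors (log2 fold change -0.47, SE 0.22, edgeR adjusted p = 0.149), and Fads2, at 595 and 611 (0.04, SE 0.42, edgeR adjusted p = 0.960). Both are desaturases. The sum of the list in TP2 (3774) lay within the 2338 to 4317 of GEM-BCC tumors.

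Of 10 tested partners of droplets and lipolysis 2 fell, against 8.35% of all genes, Cidea and the droplet GTPase Rab18 (-0.85, SE 0.27, edgeR adjusted p = 0.0420), but 1 fell without GEM8, GEM9, TP1, TP2 or TP3, and 0 without GEM4, GEM5, GEM6, GEM7 or TP4. None rose, with Mgll alone higher at an unadjusted p under 0.05 and 1 higher in DESeq2, but 2 rose without GEM3 and 1 without TP1 or TP3. Rab18 lost its call without GEM4 (0.0606), GEM5 (0.0644), GEM6 (0.0612), GEM7 (0.0593), GEM8 (0.0565), GEM9 (0.0621), TP2 (0.140) or TP4 (0.109). The log2 fold change was then -0.86 to -0.64. Counts summed for each mouse also ended the call (-0.849, edgeR adjusted p = 0.0637). It held in 12 of 24 alternatives, with an edgeR or DESeq2 adjusted p of 0.0137 to 0.418. Of 10 adipokine receptors and partners 1 rose, against 11.1% of all genes, the adiponectin receptor Adipor1 (0.71, SE 0.19, edgeR adjusted p = 0.0166), without TP2 (0.0989) or TP4 (0.0593) no longer so, in a range of 0.00367 to 0.540. Without TP3 2 of those 10 rose. None fell, with 0 lower at an unadjusted p under 0.05 and 0 lower in DESeq2.

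Markers of other cell types that share adipocyte genes were read beside them. Of 12 endothelial genes 5 rose and 0 fell, against 11.1% and 8.35% of all genes, with a median log2 fold change of 0.80. The counts were again 5 and 0 without TP2, against 6.43% and 4.82%, and 3 and 0 without TP2 and TP4, against 6.27% and 4.59%. At an unadjusted p under 0.05 there were 7 higher and 0 lower, against 18.4% and 16.1% of all genes, and in DESeq2 5 and 0, against 13.1% and 12.9%. Cdh5 had 1.29 (SE 0.22, edgeR adjusted p = 0.00116), Tie1 1.65 (SE 0.32, edgeR adjusted p = 0.00271), Esam 1.39 (SE 0.31, edgeR adjusted p = 0.00628), Kdr 1.26 (SE 0.31, edgeR adjusted p = 0.0117) and Emcn 1.11 (SE 0.37, edgeR adjusted p = 0.0443). Over the alternatives the adjusted p reached 0.175 for Cdh5, 0.293 for Tie1, 0.282 for Esam and 0.119 for Kdr.

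Emcn held in 9 of 24 alternatives, with an edgeR or DESeq2 adjusted p of 0.00374 to 0.233. It lost its call without GEM1 (0.0779), GEM2 (0.0649), GEM3 (0.0502), GEM4 (0.0701), GEM6 (0.0638), GEM7 (0.0742), GEM8 (0.0564), GEM9 (0.0515), TP1 (0.113), TP3 (0.112) or TP4 (0.0965). The log2 fold change was then 0.91 to 1.17. Counts summed for each mouse also ended the call (1.085, edgeR adjusted p = 0.0556). The summed CPM of endothelial genes was 134.5 to 334 in GEM-BCC tumors, 421 in TP1, 544 in TP2, 427 in TP3 and 509 in TP4, and no gene was at 0 in all tumors. The most abundant by mean was Pecam1 in GEM-BCC tumors (58.9) and Cdh5 in Tp-BCC tumors (121). The sum was thus higher in all 4 Tp-BCC tumors, as were Fabp4 and Cd36, which endothelium also makes, and its part in the result was not tested.

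Of 13 macrophage genes 1 rose, against 11.1% of all genes, Cd68 (1.31, SE 0.39, edgeR adjusted p = 0.0292, in a range of 0.0123 to 0.461), and 0 fell, with 2 higher and 0 lower at an unadjusted p under 0.05 and 1 and 0 in DESeq2. Cd68, a lysosomal protein, lost its call without TP2 (0.0911) or TP4 (0.117), so that none rose without either, and 2 rose without GEM6. Their summed CPM was 85.7 to 444.5 in GEM-BCC tumors, 263 in TP1, 230.1 in TP2, 263 in TP3 and 464 in TP4, with Lyz2 the most abundant by mean in both models, and its part in the result was not tested.

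Of the 16 skeletal muscle genes 8 were tested and 2 rose, against 11.1% of all genes, Des (desmin, 2.91, SE 0.58, edgeR adjusted p = 0.00302) and Atp2a1 (a calcium pump, 4.11, SE 0.85, edgeR adjusted p = 0.00406). None fell, with 5 higher and 0 lower at an unadjusted p under 0.05 and 3 and 0 in DESeq2. The counts were 3 and 0 without TP2, 4 and 0 without TP3, and 1 and 1 without TP4 or without TP2 and TP4. The call for Atp2a1 ended without TP4 (1.05, edgeR adjusted p = 0.3), in a range of 2.71e-05 to 0.662, and Des had 1.93 without TP4 (SE 0.56, edgeR adjusted p = 0.0361), in a range of 2.37e-05 to 0.251. The most abundant muscle gene by mean was Actn3 in GEM-BCC tumors (2.49) and Acta1 in Tp-BCC tumors (21.3), the latter through TP4 alone, since Des was the highest in TP1, TP2 and TP3. Acta1 had a CPM of 0.177 in TP1, 5.40 in TP2, 0.239 in TP3 and 79.5 in TP4 and at most 0.128 in GEM-BCC tumors. Muscle RNA was highest in TP4 and next highest in TP2, and its part in the result was not tested.

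**Figure D5:**
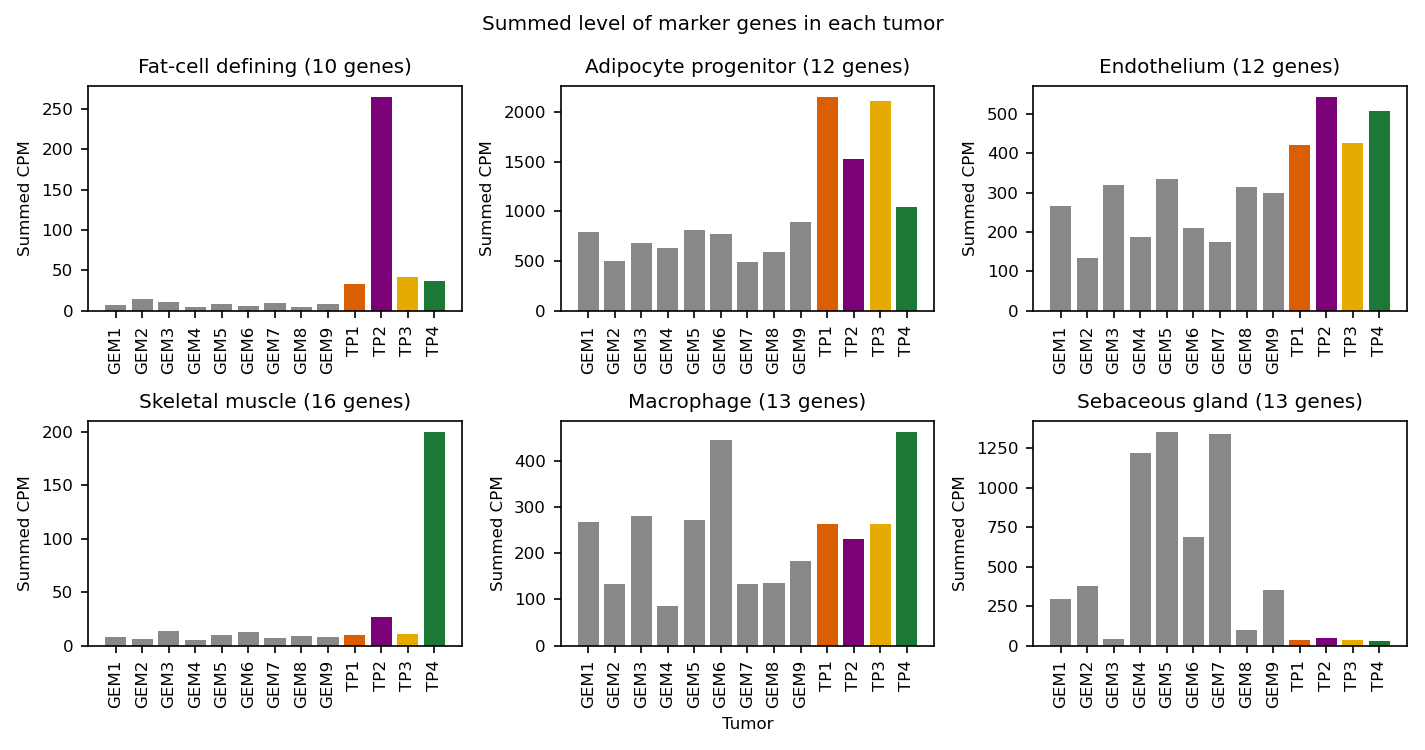
Summed CPM of 6 marker lists in each of the 13 tumors, with bars for GEM1 to GEM9 in grey and TP1 to TP4 in color. Fat-cell defining genes peak in TP2 (264.9), skeletal muscle genes in TP4 (200.5) and sebaceous gland genes in GEM5 (1356).

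Of 13 sebaceous gland genes 6 were tested, 0 rose and 2 fell, against 11.1% and 8.35% of all genes, and 4 did not pass the test. Without TP2 the counts were again 0 and 2, against 6.43% and 4.82%. Of the 6, Far2 and Gldc passed the filter only through GEM-BCC tumors. At an unadjusted p under 0.05 there were 0 higher and 3 lower, and in DESeq2 0 and 2. Krt79, a keratin of the gland's duct, had a log2 fold change of -6.05 (SE 1.07, edgeR adjusted p = 0.00138, in a range of 1.39e-11 to 0.0460), and Cidea was the other, so that 1 fell without GEM4, GEM5, GEM6, GEM7, TP1, TP3 or TP4. The most abundant gene was Krt79 in GEM-BCC tumors other than GEM3, and Soat1 in GEM3 and each Tp-BCC tumor. The summed CPM was 1221 in GEM4, 1356 in GEM5 and 1340 in GEM7, but 42.9 in GEM3 and 101 in GEM8, and from 31.8 to 48.3 for Tp-BCC. Its part in the result was not tested.

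Fibroblast genes gave 1 of 10 higher (Pdgfra) and 2 lower, against 11.1% and 8.35% of all genes, and 1 and 1 without TP2, against 6.43% and 4.82%. The lower were Dpt (dermatopontin, -1.80, SE 0.37, edgeR adjusted p = 0.00384, in a range of 9.62e-06 to 0.185) and Col1a1 (collagen I, -1.12, SE 0.38, edgeR adjusted p = 0.0497). Col1a1 held in 12 of 24 alternatives, in a range of 0.00370 to 0.550. It lost its call without GEM2 (0.0714), GEM5 (0.0774), GEM6 (0.0779), GEM7 (0.0550), GEM8 (0.0717), GEM9 (0.0634), TP1 (0.122), TP2 (0.0997) or TP3 (0.108), each leaving 1 lower. The log2 fold change was then -1.19 to -0.94. Counts summed for each mouse also ended the call (-1.129, edgeR adjusted p = 0.064). The summed CPM of fibroblast genes was 14070 to 53410 for GEM-BCC and 18150 to 31550 for Tp-BCC, with Col1a2 the most abundant by mean in the former and Col3a1 in the latter, and its part in the result was not tested.

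Epithelial tumor markers were abundant in every tumor. Of 8 genes 0 passed the adjusted threshold in edgeR, against 11.1% of all genes higher and 8.35% lower, with 1 higher (Gli1) and 2 lower (Trp63 and Ptch1) at an unadjusted p under 0.05, and 0 higher and 1 lower in DESeq2. There was 1 lower without TP2 and TP4 or with the GC trend removed. Krt5 had a mean CPM of 7502 in GEM-BCC and 6625 in Tp-BCC tumors (log2 fold change -0.18, SE 0.29, edgeR adjusted p = 0.6865), and Krt17 had 2773 and 4039 (0.54, SE 0.26, edgeR adjusted p = 0.147). The summed CPM of the 8 genes was 12250 to 18060 in GEM-BCC tumors, 9619 in TP1, 16920 in TP2, 8958 in TP3 and 21170 in TP4, with Krt5 the most abundant.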

How the data were processed

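Poly(A) RNA of 13 tumors was sequenced, 1 library per tumor. The authors cleaned reads with SOAPnuke, aligned them to GRCm39 transcripts with Bowtie2 2.3.4.3 and deposited RSEM 1.3.1 expected counts per gene, quantified with strand (tools and build as in the submitters' processing notes). RSEM divides reads that match several genes, so 3.12% of the values are fractional. The values are not normalized.

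In R 4.3.3 the expected counts were made whole numbers by rounding. Of 21100 genes, 16687 had a value in all 13 tumors, 1932 in GEM-BCC alone and 65 in Tp-BCC alone. Why values are missing is not given in the sources used here. The test took the 14390 genes that reached 10 counts in 4 or more tumors. Models were compared with edgeR 4.0.16 (TMM, quasi-likelihood F test, robust dispersions, no covariate) and adjusted by Benjamini-Hochberg over all genes tested. The study's thresholds, an adjusted p under 0.05 together with a log2 fold change past 2 in either direction, were applied to edgeR fold changes without shrinkage, while the study used DESeq2 with shrunken ones. In the text, rose and fell need the adjusted p alone. CPM values use TMM-scaled library sizes, are not divided by gene length, and are compared only within a gene or list. GEM-BCC tumors of 1 mouse were treated as separate samples.

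Genes under the filter are given as counts and ratios of summed counts with exact 95% intervals, or against a floor of 3 counts over the group. Members and lists were chosen with earlier results of these data known. Named were all 34 members, in full the 10 fat-cell defining genes and members past the threshold, and of each other list up to 5 genes past the threshold by smallest p, otherwise the 2 with the highest level.

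Alternatives were DESeq2 size factors, library size alone, other filters, DESeq2 1.42.0, dispersions without the robust option, summed counts for each mouse, a replicate block, missing values set to 0, a fold threshold of 1, a GC trend removed per tumor (lowess, span 0.3) and each tumor left out. GC content came from GENCODE vM21 transcripts of GRCm38, with a value for 97.9% of tested genes and 34 of 34 members. Of the members' longest transcripts, that of Bscl2 shared 7.51% of its 100-base words with another gene and that of Plin2 0.224%, so some of their reads may be divided. Leaving out TP2 and TP4 together was chosen after seeing the data.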

Additional observations from a re-analysis of the deposited data

Results flagged for a closer look

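Single tumors far from the rest of their model were looked for in the CPM of each adipocyte gene and in the summed CPM of each list, by the gap to the nearest tumor over the range of the group (Dixon's 95% limit). Of 94 groups tested 25 had such a tumor. The limit's rate of about 1 in 20 by chance assumes independent groups and normally distributed values. The CPM values were not transformed, some rest on very few counts, and many of the groups share a library. The 25 are therefore a description and do not measure an excess over chance. Most were TP2 within the 4 Tp-BCC tumors, and leaving out TP2 was already a planned setting.

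In TP2 the outlying values of adipocyte genes were 11.25 for Plin1, 33.56 for Plin4, 23.15 for Cidec, 1.672 for Adig, 26.17 for Lpin1, 19.61 for Adipoq, 2.315 for Lep, 4.115 for Retn, 131.4 for Cfd, 27.97 for Fabp4, 18.77 for Gpd1, 12.6 for Pck1, 7.715 for Thrsp and 86.47 for Car3. These 14 values come from the same library. Summed lists were outlying in TP2 for fat-cell defining genes (264.9) and for the partners of droplets and lipolysis (341.3). The latter sum lay within the range of GEM-BCC tumors (303.9 to 418.7). In TP4 the sums of skeletal muscle genes (200.5) and macrophage genes (463.9) lay apart.

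Among GEM-BCC tumors, GEM3 lay apart in Slc2a4 (54.27) and Sncg (5.788), and GEM8 in the sum of brown and beige fat genes (1029.0), whose most abundant gene was Tbx1. The remaining values rest on very few counts: Lep in GEM1 (0.09863, 3 counts), Pck1 in GEM1 (0.03288, 1 count), Ucp1 in GEM2 (0.03633, 1 count) and Acvr1c in TP1 (0.1177, 2 counts). No explanation was tested for any of them.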

How the results depend on the processing

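The 11 adipocyte genes past an adjusted p of 0.05 and the 8 called, with 2792 and 801 of all genes, were recomputed under each alternative. Over the tumors left out in turn, with the same genes tested, adipocyte genes past the threshold were 5 to 12 and those called 5 to 9, and all genes past the threshold 1618 to 3024 and all called 639 to 859. The fewest adipocyte genes past the threshold, 5, came without TP2. Without TP2 and TP4, chosen after seeing the data, the counts were 7, 5, 1562 and 537. The 7 included 5 of the 11, and Cebpa and Cebpb, which fell.

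The other reading of the filter left 21 members to test and gave 7 past the threshold, 4 called and 439 of all genes called, since Cidec, Cfd, Car3 and Adipoq were no longer tested. With no filter 33 members were tested, 18 passed and 15 were called, while 2863 of all genes passed and 1013 were called. The added members were Adig, Aqp7, Lep, Pck1, Plin1, Retn and Thrsp. DESeq2 gave 7 and 4, with an adjusted p left undefined for Adipoq, Car3, Cidec and Gpd1. A fold threshold of 1 called 1989 of all genes. All genes past the threshold numbered 2752 with DESeq2 size factors, 2567 with library size alone, 2816 without the robust option, 2604 with summed counts for each mouse, 2866 with missing values set to 0, 3743 with DESeq2 and 4080 with the GC trend removed.

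With the replicate block, the number in the tumor name, 3 adipocyte genes (Car3, Cfd and Cidec) were past the threshold and called, and 178 of all genes were past it and 178 called. The labels give no reason for tumors of equal number to be paired, and the correlations of equally numbered tumors were -0.381, -0.122, -0.101 and -0.179, so the numbers do not pair them.

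Of the fold changes of tested members under the alternatives, 528 kept direction and side of the threshold, 31 lost the call, 11 gained it and 22 changed sign. Of 34 named genes of other lists 707 values kept their side, 94 lost the call and 12 changed sign. No changed sign had an adjusted p under 0.154. The changed signs follow, as log2 fold changes.

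Without TP2 and TP4, Lipe was -0.02328, Pnpla2 -0.6126, Pparg 0.1669, Slc2a4 -0.3163, Dgat1 -0.4011, Retsat -0.177, Atp2a1 -0.925, Fads2 -0.5111 and Krt17 -0.1553. With the GC trend removed, Lpl was 0.1396, Pparg 0.2324, Slc2a4 -0.01429, Dgat1 -0.2052 and Fads2 -0.08304. With the replicate block, Pparg was 0.1333, Slc2a4 -0.02281 and Dgat1 -0.02447. With library size alone, Dgat1 was -0.001589 and Fads2 -0.06433. Over single tumors left out, Pnpla2 ran from -0.09137 to 0.7908, Pparg from -0.3022 to 0.0859 (0.0008161 without GEM5), Cebpb from -0.6266 to 0.07165, Dgat1 from -0.1624 to 0.2623, Agpat2 from -0.4152 to 0.01253, Fads2 from -0.1699 to 0.224 and Krt5 from -0.5375 to 0.01713.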
